A study of Mus musculus with 9 samples.

Results

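*Aurka*, *Tpx2*, *Bora*, *Plk1*, *Aurkb*, *Incenp*, *Birc5* and *Cdca8* encode the Aurora A kinase with its activators, Polo-like kinase 1, and the chromosomal passenger complex that carries Aurora B. These 8 genes were chosen by name, with earlier results of these data known. Each was found in 1 row of the 15184 genes in the table. PolyA+ RNA of mouse embryonic fibroblasts (MEFs), which are cultured from mouse embryos, was measured by RNA-Seq in 9 libraries. The control group, Empty, held 3 libraries with the genotype label Empty vector. The lines SAM1 and SAM2, both with the genotype label Hnrnpk_SAM, gave 3 libraries each. In the synergistic activation mediator (SAM) system an inactive Cas9 and a guide RNA bring transcriptional activators to a chosen gene, here *Hnrnpk*, which encodes an RNA-binding protein. Per the study's methods, the models were made from wild-type MEFs by lentiviral transduction and drug selection, with a nontargeting guide in the controls. The labels do not say which guide a line carries, whether a line is a clone, or whether libraries of a group are separate cultures, so the p-values measure only the spread between these libraries. The comparison asks how RNA of MEFs labelled Hnrnpk_SAM differs from that of control MEFs.

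Cells enter mitosis when cyclin B and *Cdk1* become active, a switch that *Plk1* helps to set. *Bora*, bound to Aurora A, presents *Plk1* for activation in G2. *Tpx2* later binds Aurora A, activates it and places it on spindle microtubules. In the passenger complex, Aurora B binds the scaffold *Incenp*, and *Birc5* (survivin) and *Cdca8* (borealin) anchor the complex at centromeres and later at the spindle midzone. The RNAs of these genes are periodic in dividing cells and peak in G2 and mitosis, so their level in a culture depends on how many cells are dividing.

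A shared feature of many such genes is a pair of promoter elements, the CHR, to which cell cycle complexes of the MuvB family bind, and the CCAAT box, the binding site of NF-Y. RefSeq promoters (GRCm38.p6, an older build than the GRCm39 of the expression table) were examined for 3 members, *Aurka*, *Plk1* and *Birc5*. Those of the other 5 members were not analysed here. On both strands the letters TTTGAA or TTCGAA (CHR) and CCAAT were searched. Of 32851 promoters of the same length, 19.2% held a CHR, 37.4% a CCAAT box and 7.52% both. *Aurka* and *Plk1* held both, and *Birc5* held neither. The stretches before the start site and a short window after it are printed because they carry these letters, which are in capitals.
*Aurka*, upstream, chr2:172370571-172370670, minus strand: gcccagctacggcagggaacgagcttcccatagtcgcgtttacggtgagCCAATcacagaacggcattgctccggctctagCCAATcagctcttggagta
*Aurka*, after the start, chr2:172370521-172370550, minus strand: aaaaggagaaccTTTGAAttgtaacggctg
*Plk1*, upstream, chr7:122159335-122159434, plus strand: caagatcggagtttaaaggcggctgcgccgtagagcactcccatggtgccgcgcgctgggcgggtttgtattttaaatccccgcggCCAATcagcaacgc
*Plk1*, after the start, chr7:122159453-122159482, plus strand: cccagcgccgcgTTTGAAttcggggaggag
Counted from the first transcribed base, the CHR began at 33 in *Aurka* and at 31 in *Plk1*. The CCAAT boxes began at -51 and -19 in *Aurka* and at -14 in *Plk1*. These are matches of letters, not measured binding.

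The libraries held from 41759636 to 49026626 reads on the listed genes, recovered from the steps of the deposited normalized counts. The fewest reads of a member in a library were 254 (*Bora*, a counting error of 6.27%) and the most 12250 (*Tpx2*, 0.904%), so depth did not limit the members. Counts of libraries of a group differed by a chi-square of 10.7 to 12.9 per gene in Empty and 1.53 to 2.28 in SAM2. In SAM1 it was 1.45 between replicates 1 and 3, and 7.83 and 9.30 for the pairs with replicate 2. Sampling alone gives about 1, so the SAM2 libraries differed by little more than sampling. The fit of 3 groups shares an estimate of the spread over these unequal groups. *Hnrnpk*, the gene the SAM system was aimed at, had 25773 ± 621 normalized counts in Empty, 23922 ± 264 in SAM1 and 26563 ± 321 in SAM2 (mean ± SD, n = 3). Its log2 difference from Empty was -0.11 in SAM1 (limma adjusted p = 0.00252) and 0.044 in SAM2 (limma adjusted p = 0.159), so its RNA does not check the genotype labels, and directions below are those of the libraries labelled Hnrnpk_SAM. All 10 fibroblast markers were in the table, with summed counts of at least 843472 in every library. Of the other markers, *Epcam*, *Krt5*, *Krt14*, *Ptprc*, *Adgre1*, *Sox10* and *Gfap* were not in the table, while the summed endothelial markers ranged from 301 to 357 in Empty, from 4613 to 4988 in SAM1 and from 638 to 689 in SAM2, mostly *Kdr*. Of single markers, *Tubb3* (neural) had a log2 difference of 1.32 for the lines together, *Cd68* (blood) 0.55 and *Map2* (neural) -0.94, all past the threshold. *Cdh1* (epithelial) had means of 33.9, 88.7 and 32.4 in Empty, SAM1 and SAM2. Among the fibroblast markers, *Dcn* (-2.17), *Pdgfra* (-0.71) and *Thy1* (-0.48) were called lower for the lines together and *Pdgfrb* (0.74) higher. *Col1a1*, *Col1a2*, *Col3a1*, *Vim*, *Fn1* and *Lum* did not pass there, but each passed in SAM1, and *Col1a1*, *Col3a1* and *Vim* passed in SAM2. In SAM1 and SAM2, *Col1a1* had -0.34 and 0.39, *Col1a2* -0.47 and 0.036, and *Col3a1* -0.54 and 0.065. *Vim* had 0.55 and -0.077, *Fn1* -0.23 and 0.21, and *Lum* -1.98 and -0.017. The part of these marker differences in the results below was not tested.

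*Aurka* and its activators rose in both lines, and *Bora* rose most of these 3 genes. *Aurka* (chr2:172198109-172212849, minus strand, GRCm39) had 1094, 1250 and 1155 normalized counts in the Empty libraries, 3169, 3416 and 3209 in SAM1, and 2820, 2896 and 2854 in SAM2. *Bora* (chr14:99283627-99311976, plus strand) had 283, 311 and 297 in Empty, 965, 990 and 952 in SAM1, and 857, 901 and 900.03 in SAM2. In both genes the lowest SAM library lay far above the highest Empty library, and SAM2 lay below SAM1 with no overlap. *Tpx2* (chr2:152689854-152737245, plus strand) had 5766, 5710.03 and 5658 in Empty, 11627, 11437 and 11623 in SAM1, and 9669, 9618 and 9565 in SAM2. The *Tpx2* groups did not overlap either, and its SAM2 libraries lay between those of Empty and SAM1. The mean of *Aurka* was 2.80-fold that of Empty in SAM1 and 2.45-fold in SAM2. For *Bora* the ratios of means were 3.26 and 2.98, and for *Tpx2* they were 2.02 and 1.68. On the scale of log2(normalized count + 1), *Aurka* differed from Empty by 1.49 in SAM1 (SE 0.0472, limma adjusted p = 8.39e-12) and by 1.29 in SAM2 (limma adjusted p = 5.18e-11). *Bora* differed by 1.70 (SE 0.050, limma adjusted p = 3.95e-12) and 1.57 (limma adjusted p = 1.31e-11), and *Tpx2* by 1.02 (SE 0.0246, limma adjusted p = 6.23e-13) and 0.75 (limma adjusted p = 1.81e-11).

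*Plk1*, the kinase that *Bora* and Aurora A switch on, rose in both lines, with similar levels in SAM1 and SAM2 as deposited. *Plk1* (chr7:121758646-121769108, plus strand) had 894, 856 and 891 normalized counts in Empty, 2102, 1984 and 2001 in SAM1, and 2071, 2095 and 2026 in SAM2. The SAM1 and SAM2 libraries overlapped, and all 6 lay above the 3 Empty libraries. Its mean was 2.30-fold that of Empty in SAM1 and 2.34-fold in SAM2, log2 differences of 1.20 (SE 0.0376, limma adjusted p = 7.21e-12) and 1.23 (limma adjusted p = 9.64e-12).

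The 4 passenger complex genes also rose in both lines but by unequal amounts, with the kinase *Aurkb* and its scaffold *Incenp* ahead of *Birc5* and *Cdca8*. *Aurkb* (chr11:68936467-68944764, plus strand) had 448, 458 and 425 normalized counts in Empty, 1314, 1282 and 1311 in SAM1, and 1574, 1648 and 1588 in SAM2. *Incenp* (chr19:9846569-9876924, minus strand) had 1647, 1608 and 1611 in Empty, 3619, 3628 and 3790 in SAM1, and 4047, 4138 and 4183 in SAM2. Kinase and scaffold thus stood in the order Empty, SAM1, SAM2, with no overlap between groups. *Birc5* (chr11:117740040-117746581, plus strand) had 1421, 1653 and 1489 in Empty, 2938, 3304 and 2985 in SAM1, and 2359, 2411 and 2397 in SAM2. *Cdca8* (chr4:124812257-124833104, minus strand) had 1121, 1159 and 1076 in Empty, 2137, 2408 and 2208 in SAM1, and 1788, 1794 and 1785 in SAM2. In these anchoring subunits the order was Empty, SAM2, SAM1, again with no overlap. Among all members the ratio of means to Empty ran from 1.57 (*Birc5*, SAM2) to 3.61 (*Aurkb*, SAM2).

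*Aurkb* differed from Empty by 1.55 on the log2 scale in SAM1 (SE 0.0426, limma adjusted p = 2.06e-12) and by 1.85 in SAM2 (limma adjusted p = 6.85e-13). *Incenp* differed by 1.18 (SE 0.0317, limma adjusted p = 1.62e-12) and 1.35 (limma adjusted p = 8.52e-13). *Birc5* differed by 1.02 (SE 0.0555, limma adjusted p = 1.86e-09) and 0.65 (limma adjusted p = 2.11e-07), and *Cdca8* by 1.01 (SE 0.0459, limma adjusted p = 2.97e-10) and 0.68 (limma adjusted p = 2.23e-08).

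**Figure D1:**
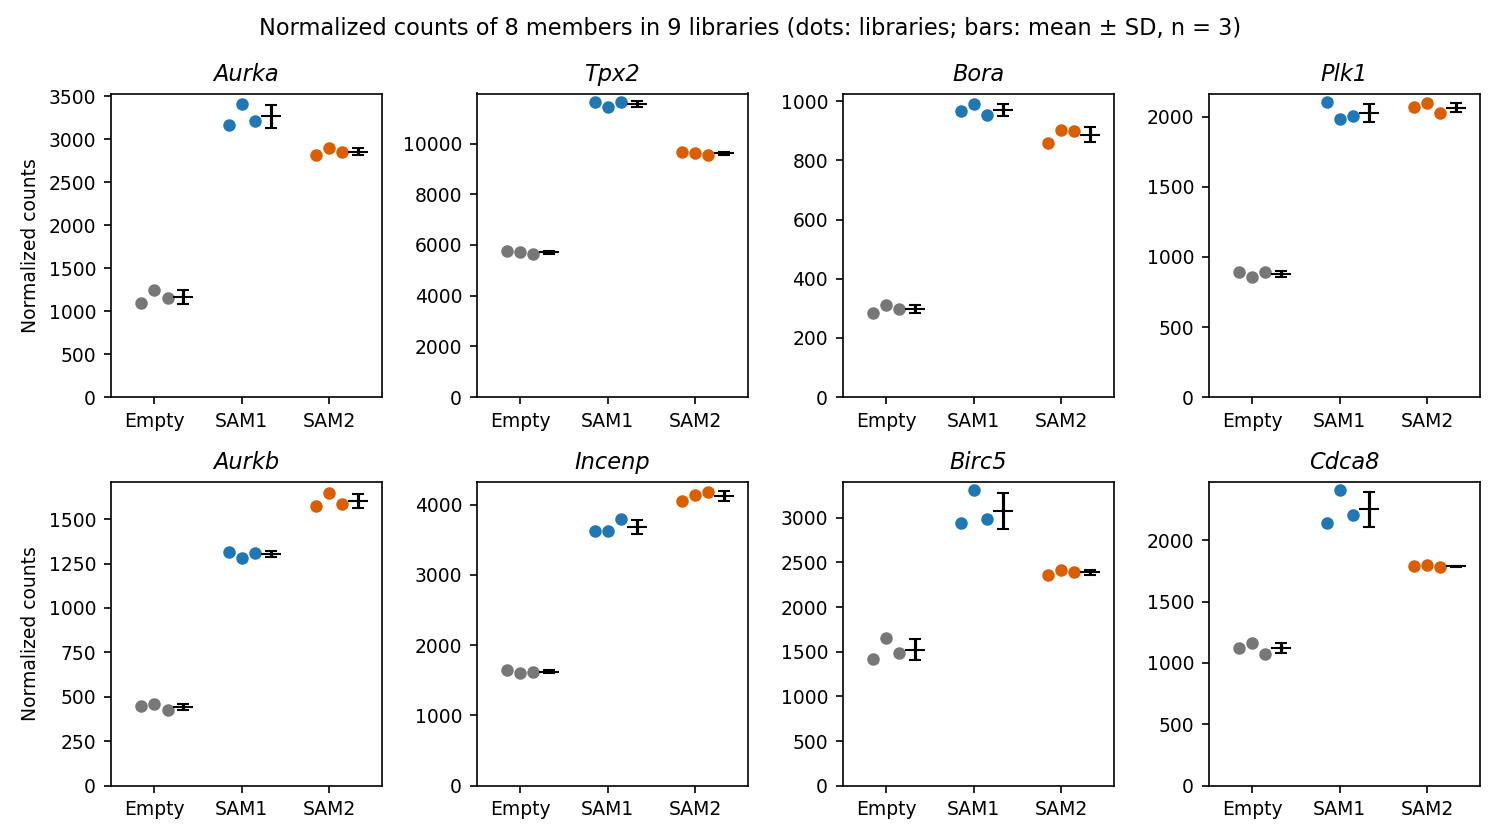
Normalized counts (vertical axis, from 0) of the 8 members in the Empty, SAM1 and SAM2 libraries, with a dot for each library and a bar for the mean ± SD of 3 libraries. In every panel the 6 SAM libraries sit above the 3 Empty libraries, and SAM2 sits above SAM1 in Aurkb and Incenp and below it in Aurka, Tpx2, Bora, Birc5 and Cdca8, an order that turns for these last 5 when values are taken relative to Actb and Gapdh.

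So 8 of 8 members were called higher in SAM1, where limma called 37.3% of all genes higher and 36.9% lower, and 8 of 8 in SAM2, where it called 35.2% higher and 35.3% lower. These comparisons share the 3 Empty libraries. In the comparison of the study, the 6 SAM libraries together against the 3 Empty libraries, 8 of 8 were called higher beside 26.8% of all genes. There the log2 difference ran from 0.83 in *Birc5* (limma adjusted p = 0.000247) to 1.70 in *Aurkb*, with *Bora* at 1.64, *Aurka* at 1.39, *Incenp* at 1.26, *Plk1* at 1.22, *Tpx2* at 0.88 and *Cdca8* at 0.84. All 6 SAM libraries lay above all 3 Empty libraries in 8 of 8 members and in 25.9% of all genes. For SAM1 alone above Empty the share of all genes was 37.3%, and for SAM2 alone 36.7%. The median log2 difference of the members was 1.19 in SAM1 and 1.26 in SAM2, beside 0.0093 and -0.0015 over all genes. In bulk RNA, more cells in G2 or mitosis and more RNA per such cell cannot be told apart.

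The members did not stand alone. Among the 54 G2/M genes that Seurat uses to score cells, 49 of those in the table are not members, and their median log2 difference was 1.23 in SAM1 and 1.13 in SAM2, with 46 of 49 called higher in each. The 43 S phase genes of the same source had medians of 0.59 and 0.49. The mean log2 value of the 49 genes was therefore subtracted in each library, which gives how far a member moved beyond the average G2/M gene. Measured so, *Bora* was ahead of the list by 0.55 in SAM1 (limma adjusted p = 1.36e-07) and 0.50 in SAM2 (limma adjusted p = 4.15e-07). *Aurkb* was ahead by 0.40 (limma adjusted p = 7.36e-07) and 0.78 (limma adjusted p = 3.83e-10). These were the members furthest above the list in either line. Both stayed called when the median log2 value of the list in each library was subtracted in place of its mean. There *Bora* was at 0.34 in SAM1 and 0.32 in SAM2, and *Aurkb* at 0.19 and 0.60. That median is one of levels in a library, not the median of log2 differences given above. *Aurka* was ahead by 0.34 (limma adjusted p = 1.84e-05) and 0.22 (limma adjusted p = 0.000774). Against the median of the list its value was 0.12 in SAM1 (limma adjusted p = 0.0451) and 0.041 in SAM2 (limma adjusted p = 0.478).

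*Tpx2*, *Birc5* and *Cdca8* rose less than the average G2/M gene. *Tpx2* was at -0.13 relative to the list in SAM1 (limma adjusted p = 0.000198) and at -0.32 in SAM2 (limma adjusted p = 1.79e-08). *Cdca8* was at -0.14 (limma adjusted p = 0.0124) and -0.39 (limma adjusted p = 2.41e-06). *Birc5* was at -0.13 (limma adjusted p = 0.0433) and -0.42 (limma adjusted p = 9.78e-06). The SAM1 call of *Birc5* was lost without any library other than Empty replicate 1 or SAM1 replicate 2 (limma adjusted p from 0.0568 to 0.215), and that of *Cdca8* when SAM1 replicate 1 was (limma adjusted p = 0.0711). *Plk1* and *Incenp* were close to the list in SAM1, at 0.054 (limma adjusted p = 0.180) and 0.032 (limma adjusted p = 0.353), and above it in SAM2, at 0.16 (limma adjusted p = 0.00120) and 0.27 (limma adjusted p = 1.45e-06). Against the median of the list *Plk1* turned to -0.16 in SAM1 and -0.024 in SAM2, and *Incenp* to -0.18 in SAM1, while *Incenp* in SAM2 was at 0.093 and no longer passed (limma adjusted p = 0.0684). Relative to the list, 6.96% of all genes were called higher and 83.6% lower in SAM1, against 3 and 3 of the 8 members, and in SAM2 4.87% higher and 86.9% lower, against 5 and 3 members. For the lines together 3 members (*Aurka*, *Bora* and *Aurkb*) were called higher than the list and 3 (*Tpx2*, *Birc5* and *Cdca8*) lower, beside 3.77% and 82.5% of all genes. Against the median of the list *Aurka* no longer passed there (0.081, limma adjusted p = 0.244).

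**Figure D2:**
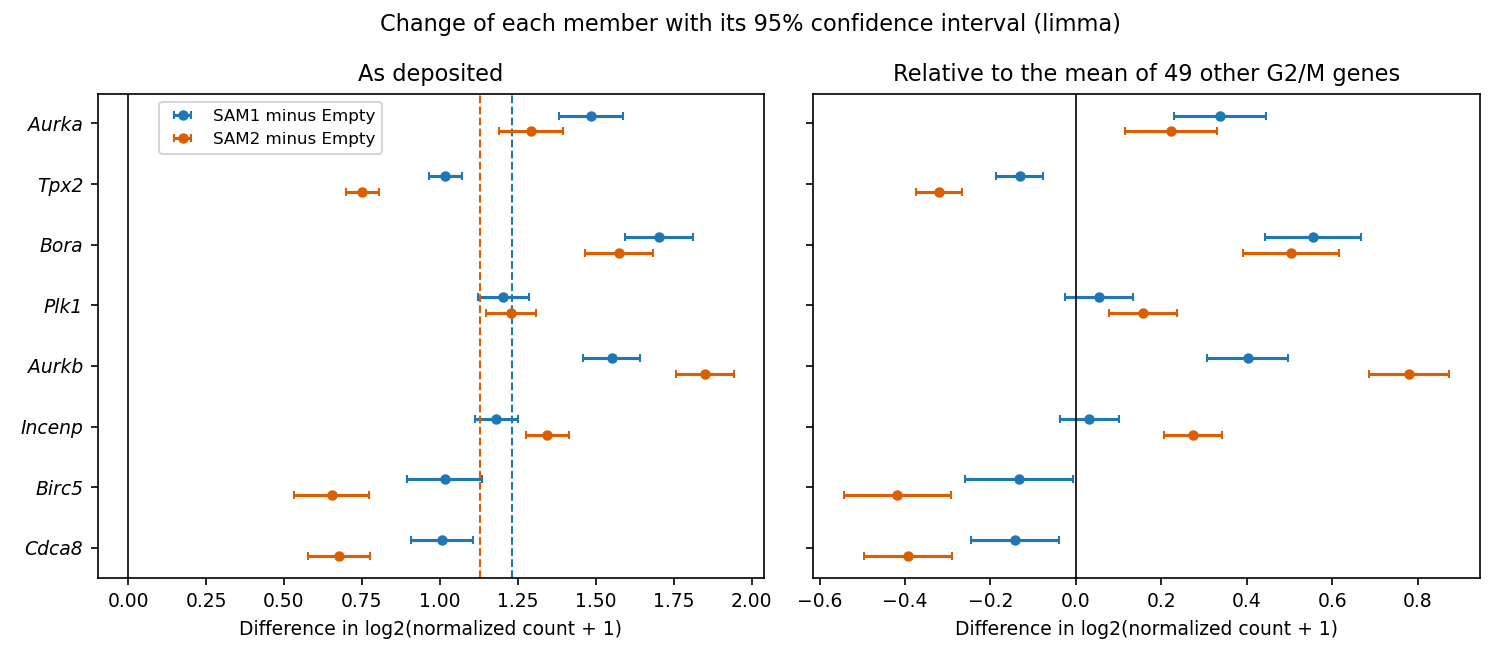
Difference of each member from Empty on the log2(normalized count + 1) scale with its 95% confidence interval, for SAM1 (blue) and SAM2 (orange), as deposited (left) and after subtracting the mean of 49 other G2/M genes in each library (right). Dashed lines on the left mark the median of those genes, 1.23 in SAM1 and 1.13 in SAM2, and on the right Bora, Aurkb and Aurka lie above 0 and Tpx2, Birc5 and Cdca8 below it in both lines.

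Between the lines, *Aurkb* and *Incenp* were higher in SAM2 and *Birc5*, *Cdca8*, *Tpx2*, *Aurka* and *Bora* lower, as deposited. The log2 difference of SAM2 from SAM1 was 0.30 in *Aurkb* (limma adjusted p = 4.82e-05) and 0.16 in *Incenp* (limma adjusted p = 0.000591). It was -0.36 in *Birc5* (limma adjusted p = 9.23e-05), -0.33 in *Cdca8* (limma adjusted p = 4.08e-05), -0.27 in *Tpx2* (limma adjusted p = 9.66e-07), -0.19 in *Aurka* (limma adjusted p = 0.00340) and -0.13 in *Bora* (limma adjusted p = 0.0394). *Plk1* differed by 0.025, with a 95% confidence interval from -0.057 to 0.11 (limma adjusted p = 0.586). So 2 members were called higher and 5 lower, beside 31.1% and 29.2% of all genes. The same 2 had all SAM2 above all SAM1 libraries (34.8% of all genes) and the same 5 all below (33.4%). The call of *Bora* was lost when any of the 6 SAM libraries was left out (limma adjusted p from 0.0587 to 0.145). Relative to *Actb* and *Gapdh*, which themselves differed between the lines by -0.46 and -0.31, the median of all genes moved by 0.38 between the lines, and *Aurka* (0.19), *Tpx2* (0.12) and *Bora* (0.26) turned to called higher in SAM2. Under that scaling *Plk1* was called higher as well (0.41, limma adjusted p = 2.47e-07), while *Birc5* (0.024, limma adjusted p = 0.719) and *Cdca8* (0.058, limma adjusted p = 0.288) changed sign and did not pass. Relative to the G2/M list, whose genes also differed between the lines (median -0.10), *Plk1* (0.10), *Aurkb* (0.38) and *Incenp* (0.24) were called higher in SAM2 and *Tpx2* (-0.19), *Birc5* (-0.28) and *Cdca8* (-0.25) lower, beside 40.4% and 22.6% of all genes. The *Plk1* call relative to the list was lost without SAM1 replicate 2 or 3 or SAM2 replicate 1 or 2 (limma adjusted p from 0.0735 to 0.0985).

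Ratios of members within a library do not depend on how libraries are scaled, so they show the unequal change most directly. How often ratios of other gene pairs separate the groups was not examined. Of single genes, 25.9% had all 6 SAM libraries above all 3 Empty libraries and 27.2% had them below. *Aurkb* had 0.293 ± 0.0202 of the normalized counts of *Birc5* in Empty, 0.425 ± 0.0321 in SAM1 and 0.671 ± 0.0111 in SAM2 (mean ± SD, n = 3). Its ratio to *Cdca8* was 0.397 ± 0.00253 in Empty, 0.580 ± 0.0427 in SAM1 and 0.896 ± 0.0200 in SAM2. In neither ratio did libraries of different groups overlap. The ratio of the kinase to its scaffold *Incenp* rose from 0.274 ± 0.0105 in Empty to 0.354 ± 0.00862 in SAM1 and 0.389 ± 0.00931 in SAM2. The ratio of the anchoring subunits, *Birc5* over *Cdca8*, was 1.36 ± 0.0826 in Empty, 1.37 ± 0.0123 in SAM1 and 1.33 ± 0.0138 in SAM2, a smaller spread between groups than within Empty.

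Over 7 ratios chosen for partners that bind or activate each other, the 6 SAM libraries were compared with the 3 Empty libraries by a two-sided exact permutation test with 84 splits, whose smallest p is 0.0119. The log2 ratio of *Aurkb* to *Birc5* was higher in SAM by 0.87 (exact p = 0.0238, adjusted over the 7 ratios 0.0278), that to *Cdca8* by 0.86 (exact p = 0.0238, adjusted 0.0278) and that to *Incenp* by 0.44 (exact p = 0.0119, adjusted 0.0208). Each was higher in 6 of 6 SAM libraries than in the 3 Empty libraries. *Aurka* rose against its spindle activator *Tpx2* by 0.50 (exact p = 0.0119, adjusted 0.0208) and fell against *Bora* by 0.25 (exact p = 0.0119, adjusted 0.0208). The ratio of *Plk1* to *Bora* fell by 0.42 (exact p = 0.0119, adjusted 0.0208), from 2.96 ± 0.202 in Empty to 2.09 ± 0.0876 in SAM1 and 2.33 ± 0.0819 in SAM2. The ratio of *Aurka* to *Aurkb*, the catalytic paralogs, was 2.63 ± 0.163 in Empty, 2.51 ± 0.136 in SAM1 and 1.78 ± 0.0218 in SAM2, and its difference of -0.31 did not pass (exact p = 0.0595, adjusted 0.0595). Between the lines, 3 libraries against 3, the smallest p is 0.1, so none of these ratios could pass there.

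**Figure D3:**
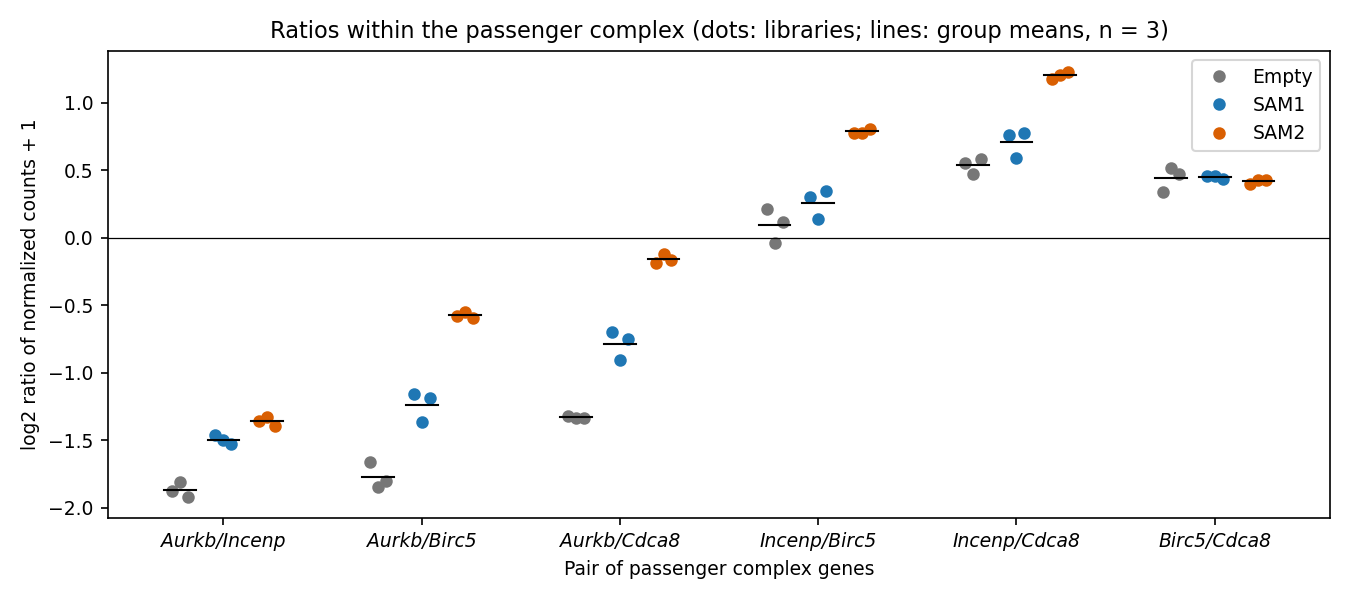
The log2 ratio of normalized counts (vertical axis, each count + 1) for every pair of passenger complex genes, with a dot for each library in Empty (gray), SAM1 (blue) and SAM2 (orange) and a line for the mean of 3 libraries. The 3 ratios with Aurkb climb from Empty to SAM1 to SAM2, and the log2 ratio of Birc5 to Cdca8 has means of 0.44, 0.45 and 0.42 in the 3 groups.

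Levels of different genes were compared per kilobase of the union of a gene's annotated exons. In Empty, *Tpx2* had the highest level, 1212 ± 11.5 normalized counts per kilobase, and *Bora* the lowest, 55.4 ± 2.57. Between them came *Birc5* (335 ± 26.3), *Plk1* (308 ± 7.42), *Aurka* (299 ± 20.2), *Cdca8* (216 ± 7.98), *Incenp* (212 ± 2.84) and *Aurkb* (124 ± 4.71). *Birc5* and *Plk1*, *Plk1* and *Aurka*, and *Cdca8* and *Incenp* overlapped between libraries, and the other neighbors did not. In SAM1 the order was *Tpx2* (2454 ± 23.0), *Aurka* (836 ± 33.9), *Plk1* (710 ± 22.4), *Birc5* (676 ± 43.8), *Incenp* (481 ± 12.6), *Cdca8* (434 ± 27.0), *Aurkb* (365 ± 4.92) and *Bora* (181 ± 3.63), of which *Plk1* and *Birc5* overlapped. In SAM2 it was *Tpx2* (2042 ± 11.1), *Aurka* (731 ± 9.75), *Plk1* (722 ± 12.1), *Incenp* (539 ± 9.06), *Birc5* (525 ± 5.92), *Aurkb* (449 ± 11.0), *Cdca8* (345 ± 0.883) and *Bora* (165 ± 4.65), of which *Aurka* and *Plk1*, and *Incenp* and *Birc5*, overlapped. By this length *Aurka* stood in the fourth place in Empty and the second in both lines, and *Aurkb* stood above *Cdca8* in SAM2 but not in Empty or SAM1. *Aurkb* made up 14.0% ± 0.359 of the summed level of the 4 passenger complex genes in Empty, 18.7% ± 0.839 in SAM1 and 24.2% ± 0.362 in SAM2, while *Birc5* made up 37.7% ± 1.68 in Empty and 28.3% ± 0.0424 in SAM2. The order depends on the length used. With the canonical transcript alone, *Birc5* had the highest level in Empty, at 1552 ± 122 per kilobase, and *Aurkb* made up 8.32% of the complex in Empty and 16.3% in SAM2.

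The genes that work with these kinases were counted by role from a hand-written list, of which 84 of 86 genes were in the table (*Aurkc* and *Plk5* were not). The list was chosen with earlier results of these data known, so its counts are not independent of those results. In the 6 SAM against 3 Empty libraries 53 were called higher and 12 lower, beside 26.8% and 27% of all genes, and the median of the 84 was 0.75, beside 0.0087 over all genes. All 6 genes that recruit the passenger complex rose, led by *Kif20a*, the kinesin that carries it to the midzone (1.74), and *Bub1*, the kinase that marks centromeric histone H2A (1.64). Of 10 Aurora B substrates 9 rose, led by the kinetochore scaffold *Knl1* (1.73) and the microtubule depolymerase *Kif2c* (1.52), and *Stmn1* had 0.34 (limma adjusted p = 0.0582). Of 8 spindle partners of Aurora A, 7 rose, led by the kinesin *Kif11* (1.42) and *Hmmr* (1.28), and *Numa1* had 0.044 (limma adjusted p = 0.472). Relative to *Actb* and *Gapdh* the 84 held 45 calls higher and 13 lower for the lines together, and none of the 65 called genes changed direction. Among those 65, *Ajuba*, *Nedd9*, *Kiz*, *Fzr1*, *Ube2s*, *Lin54*, *E2f4*, *Nfyb* and *Nfyc* no longer passed. Under that scaling 9 of 75 called genes changed sign in SAM1, 0 of 73 in SAM2 and 30 of 57 between the lines.

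Of 17 genes upstream or downstream of *Plk1*, 14 rose, led by the phosphatase *Cdc25c* (1.74), which activates *Cdk1*, and the checkpoint kinase *Bub1b* (1.58). *Wee1*, the kinase that holds *Cdk1* inactive and that *Plk1* marks for degradation, fell by 0.74 (limma adjusted p = 0.00407), while *Nudc* (0.13) and *Stag2* (0.029) did not pass. Of the Polo-like paralogs, *Plk4*, which drives centriole duplication, rose by 1.46 (limma adjusted p = 3.61e-08), *Plk2* fell by 0.61 (limma adjusted p = 0.000332) and *Plk3* had -0.18 (limma adjusted p = 0.107).

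Of 17 genes for opposing phosphatases and their regulators, 3 were called higher and 6 lower, beside 26.8% and 27% of all genes. The PP1 catalytic genes *Ppp1ca* (-0.20), *Ppp1cb* (-0.70) and *Ppp1cc* (-0.32) fell, as did the PP1 inhibitor *Ppp1r2* (-0.35) and the PP2A-B55 inhibitors *Ensa* (-0.47) and *Arpp19* (-0.37), and after quantile normalization *Ppp1ca* no longer passed. *Cdca2*, which targets PP1 to chromatin, rose by 1.93 (limma adjusted p = 9.84e-09), *Mastl*, the kinase upstream of *Ensa* and *Arpp19*, by 1.36 and the PP2A subunit *Ppp2r2a* by 0.84. The other 8 of these 17 genes, *Ppp1r12a*, *Ppp2ca*, *Ppp2cb*, *Ppp2r1a*, *Ppp6c*, *Ppp6r1*, *Ppp6r2* and *Ppp6r3*, did not pass. Of 11 ubiquitin ligase genes 6 rose, led by *Ube2c* (1.69), the E2 enzyme of the anaphase-promoting complex, and *Klhl13* (1.58, from a mean of 5.48 normalized counts in Empty). *Klhl9* (-0.39) and *Cul3* (-0.11) fell, and *Cdc27* (-0.094), *Klhl21* (0.47) and *Btrc* (-0.11) did not pass. Of these calls, those of *Fzr1* and *Ube2s* were lost relative to *Actb* and *Gapdh*, and those of *Ube2s* and *Cul3* after quantile normalization.

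Of 12 regulators that act on late cell cycle promoters 7 rose, led by *Foxm1* (1.57, limma adjusted p = 5.25e-07) and *Mybl2* (1.11, limma adjusted p = 3.23e-05), both of which can join MuvB at CHR promoters. Their binding at promoters of the members was not measured. *Lin37* (-0.51), a subunit of MuvB, and *E2f4* (-0.21), a repressor, fell. Relative to *Actb* and *Gapdh*, *Lin54*, *Nfyb* and *Nfyc* of the 7 and *E2f4* did not pass, and after quantile normalization *Nfyc* did not. *Lin52* (-0.024), *Tfdp1* (0.044) and *Nfya* (-0.076) did not pass.

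**Figure D4:**
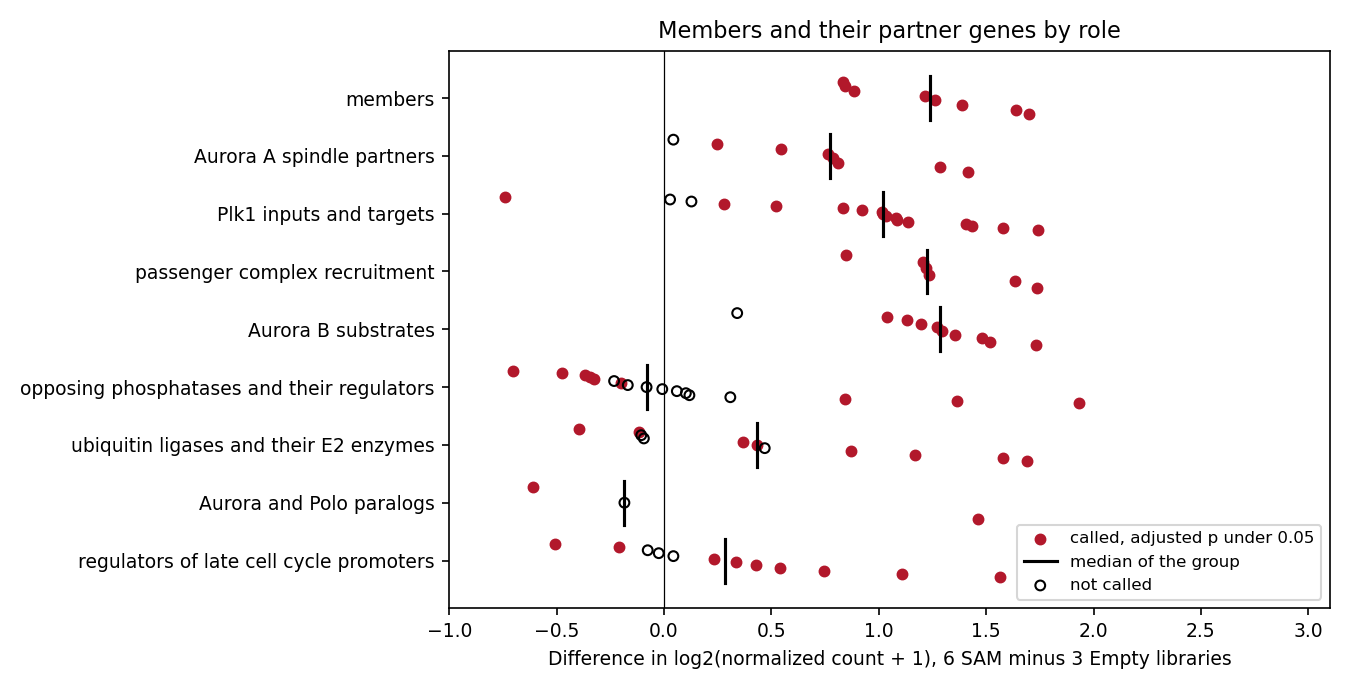
Difference in log2(normalized count + 1) between the 6 SAM and 3 Empty libraries (horizontal axis) for the 8 members and 84 partner genes, in rows by role, with called genes filled, genes not called open, and a bar at the median of each row. The members, the recruitment genes and the Aurora B substrates lie to the right of 0. Of 17 phosphatase genes 3 were called higher and 6 lower, beside 26.8% and 27% of all genes.

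Genes near the members on the chromosome were examined, since a change of a whole region would move its neighbors too. The 5 neighbors of *Bora* within 1 Mb had a median log2 difference of 0.54 in SAM1 and 0.54 in SAM2. Of these, 5 of 5 were called higher in SAM1 and 4 of 5 in SAM2, beside 37.3% and 35.2% of all genes. The other 512 genes of chromosome 14 had medians of 0.53 and 0.57, the highest of any chromosome in the table in either line. *Bora* exceeded the median of its neighbors by 1.16 and 1.04, and none of them reached its difference. The 63 neighbors of *Aurkb* had medians of 0.33 and 0.40, with 40 called higher in SAM1 and 46 in SAM2, beside the same shares of all genes. Chromosome 11 as a whole had medians of 0.0087 and 0.061. Chromosome 2, with *Aurka* and *Tpx2*, had 0.27 in SAM1 and 0.16 in SAM2, and -0.13 for SAM2 against SAM1. In SAM1 and SAM2, chromosome 7 (*Plk1*) had -0.27 and -0.24, chromosome 19 (*Incenp*) -0.084 and -0.10, and chromosome 4 (*Cdca8*) -0.12 and -0.16. Around *Aurka* (9 neighbors), *Tpx2* (31), *Plk1* (11), *Incenp* (43), *Birc5* (24) and *Cdca8* (14), the median of the neighbors lay between -0.41 and 0.083. Every member exceeded the median of its neighbors in both lines, by 0.78 (*Tpx2*, SAM2) to 1.61 (*Plk1*, SAM1). The part of the chromosome 14 level in the result for *Bora*, and of the other chromosome levels in those of the other members, was not tested.

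**Figure D5:**
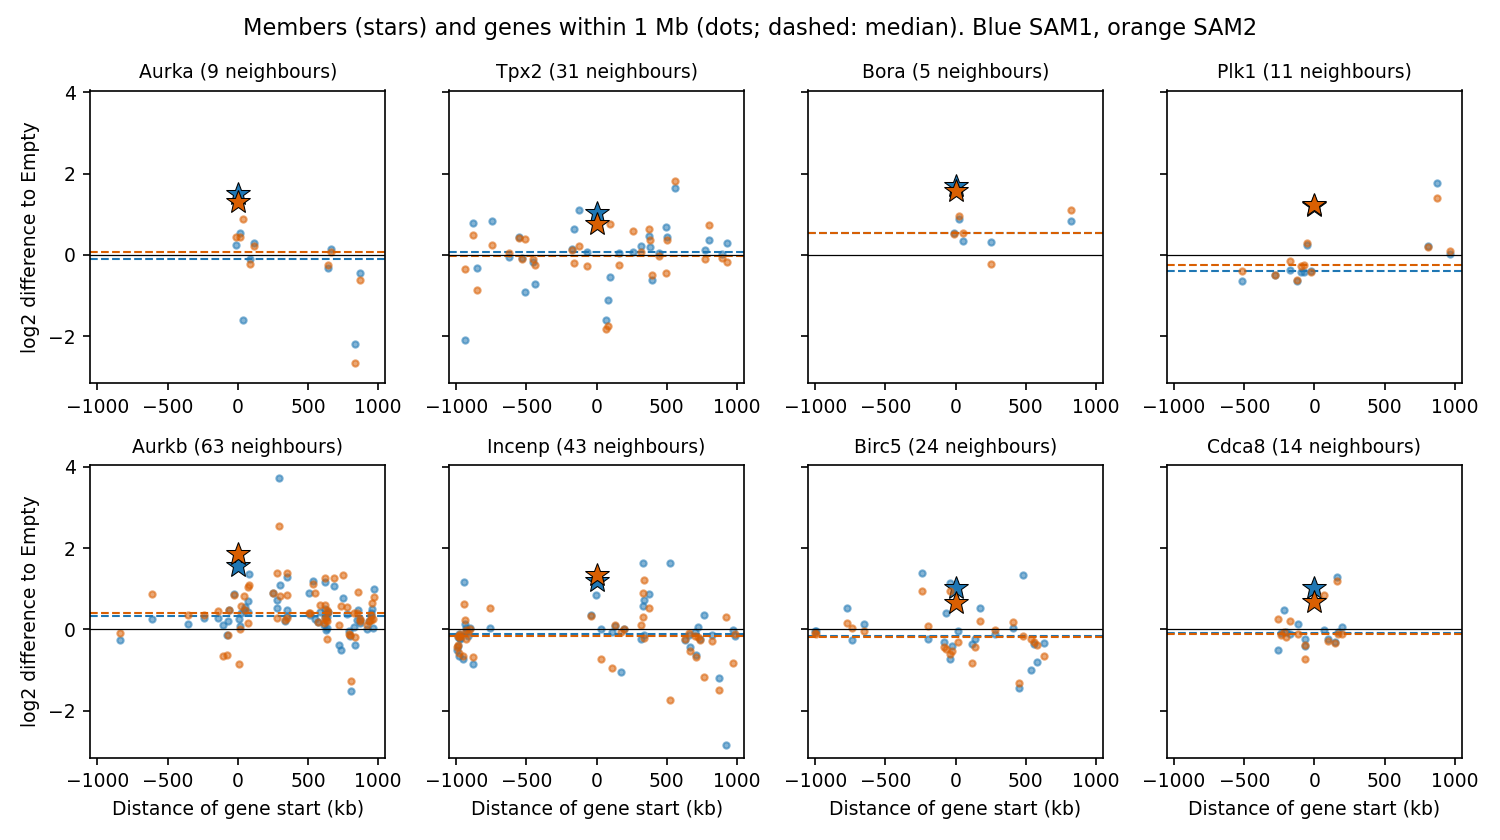
Log2 difference from Empty (vertical axis) of each member (star, at 0) and of the genes of the table that start within 1 Mb (dots, at their distance in kilobases along the chromosome), for SAM1 (blue) and SAM2 (orange), with dashed lines at the median of the neighbors. Around Bora and Aurkb the dashed lines lie above 0, at 0.54 and 0.33 in SAM1, and around Plk1 below it, at -0.41.

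Some members share their place with genes on the other strand, *Aurka* with *Cstf1* and *Fam210b* and *Bora* with *Dis3* and *Mzt1*. The kit keeps the strand, but the strand setting of the counting is not given in the sources used here, so reads in overlapping ends could be shared. *Dis3* differed from Empty by 0.87 in SAM1 and 0.96 in SAM2, *Mzt1* by 0.54 and 0.52, *Cstf1* by 0.53 and 0.44, and *Fam210b* by 0.24 and 0.43, each less than the member it overlaps. *Plk1*, *Cdca8* and *Incenp* also overlap genes on the other strand, of which only Gm50340, opposite *Incenp*, was in the table, with differences of 0.014 and -0.73. *Aurkb* and *Birc5* overlap no annotated gene.

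Among the other genes of the table, the 5 whose log2 values ran most like the mean standardized profile of the members were *Ccnb2* (r = 0.9998), which encodes the mitotic cyclin B2, *Nfatc2* (r = 0.9993), *Acta2* (r = 0.9992), *Cnn1* (r = 0.999) and *Ube2c* (r = 0.999). Each r is over the same 9 libraries, which form 3 groups, so it describes the order and spacing of the groups. *Ccnb2* had 1158 ± 36.6, 2640 ± 54.9 and 2412 ± 4.07 normalized counts in Empty, SAM1 and SAM2, and *Acta2*, which encodes smooth muscle actin, 24379 ± 863, 64320 ± 1920 and 55576 ± 260.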

How the data were processed

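PolyA+ RNA of 3 Empty, 3 SAM1 and 3 SAM2 libraries was sequenced, and groups were taken from the labels. Per the study's methods and the processing notes, the authors used FastQC 0.11.0, TopHat2 with Bowtie on GRCm39, HTSeq and DESeq2. The deposited signal is each gene's read count divided by the size factor of its library, and genes with low values had been removed. Members and gene lists were chosen with earlier results of these data known.

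Differences were tested with limma 3.58.1 (trend, R 4.3.3) on log2(value + 1), two-sided, with Benjamini-Hochberg adjustment over all 15184 genes and a threshold of 0.05, in a fit of 3 groups and in a fit of 6 against 3 libraries. Reads were recovered from the steps of the values (100% whole within 0.01 in 9 libraries) and tested with edgeR 4.0.16 and DESeq2 1.42.0 as alternatives, beside other pseudocounts, a filter, other scalings, a replicate block and each library left out. Named genes were all members, those partner genes that fell or did not pass, the pair with the largest rise in each role, and the 5 genes most like the members. G2/M and S phase genes came from Seurat 5.3.0. GENCODE vM39 gave coordinates and lengths, and 14791 gene names had a single match there. Counts of 15184 genes were simulated with the same dispersion in every gene and group and the same change in both lines. On these counts limma called 92% of genes changed by a log2 difference of 1 in SAM1, 89% in SAM2 and 94% for the lines together. Of genes changed by 0.5 it called 52%, 57% and 67%. The groups of the sequenced libraries differ in spread, so these shares may not hold for them. The promoter of *Cdca8* is not reported here.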

Additional observations from a re-analysis of the deposited data

Results flagged for a closer look

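For 7 of the 8 members the difference from Empty itself differed between the lines, tested as SAM2 minus SAM1 with limma. The log2 difference was -0.19 in *Aurka*, -0.27 in *Tpx2*, -0.13 in *Bora*, 0.30 in *Aurkb*, 0.16 in *Incenp*, -0.36 in *Birc5* and -0.33 in *Cdca8*. Relative to *Actb* and *Gapdh* the values of *Aurka*, *Tpx2*, *Bora*, *Birc5* and *Cdca8* turned positive, of which those of *Birc5* and *Cdca8* did not pass. At the same threshold limma called 31.1% of all genes higher and 29.2% lower in SAM2 than in SAM1.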

How the results depend on the processing

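Against Empty, each member was called higher in each line and in the lines together under all 19 alternatives, with log2 differences from 0.60 (*Cdca8*, SAM1) to 1.87 (*Aurkb*, SAM2). Between the lines, values relative to *Actb* and *Gapdh* gave 6 members higher and 0 lower in place of 2 and 5. *Aurka* (0.19), *Tpx2* (0.12) and *Bora* (0.26) turned and passed, and *Birc5* (0.024, adjusted p = 0.719) and *Cdca8* (0.058, adjusted p = 0.288) turned and did not pass. That scaling moved the median of all genes to -0.40 in SAM1, -0.21 for the lines together and 0.38 between the lines, and the share of called genes that were higher from 50.3% to 22.3%, from 49.8% to 31.5% and from 51.5% to 87.6%. Quantile normalization turned *Plk1* between the lines to -0.025. The *Bora* difference between the lines did not pass with DESeq2 (adjusted p = 0.0555), nor, chosen after seeing the data, with edgeR (adjusted p = 0.0810) or DESeq2 (adjusted p = 0.232) without SAM2 replicate 1.

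The median log2 value of the G2/M list in each library was also subtracted in place of its mean. *Plk1* then turned to -0.16 in SAM1, -0.024 in SAM2 and -0.093 for the lines together. *Incenp* turned to -0.18 in SAM1 and -0.045 for the lines together. In SAM1 5 members were then lower, and in SAM2 2 were higher, *Aurka*, *Plk1* and *Incenp* no longer passing. Leaving out a library gave 1 to 3 members lower than the list in SAM1, with 1 without SAM1 replicate 1. For the lines together it gave 1 to 3 lower, with 1 without Empty replicate 2 and *Cdca8* and *Birc5* not passing, and 3 to 5 higher, with 5 without SAM1 replicate 2 and *Plk1* and *Incenp* passing. Per kilobase of the canonical transcript, Empty levels were 368 for *Aurka*, 1360 for *Tpx2*, 103 for *Bora*, 395 for *Plk1*, 226 for *Aurkb*, 260.4 for *Incenp*, 1552 for *Birc5* and 685 for *Cdca8*.

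Libraries of different groups with the same replicate number had deviations that correlated by 0.0531 on average (9 pairs, 0.00237 to 0.117), beside -0.0265 for different numbers. Not every pair was over 0.1 and no source says what a number shares, so the numbers were not taken as a pairing, although in 15 of 18 cases a library correlated best with its own number, a hint from the data that they share something. With a replicate block limma called 11631, 11095, 9812 and 7343 genes (SAM1, SAM2, between the lines, lines together) in place of 11275, 10699, 9162 and 8179. With splits restricted to 1 library of each number, 27 in all, 0 of the 7 ratios passed in place of 6 (adjusted p from 0.0648 to 0.0741). The differences themselves did not change. So few splits leave a higher smallest p than 84 do, so the loss of calls cannot show that the ratios are weaker. Every member has at least 254 reads in each library, so counting error is at most 6.27%.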
